A study of Mus musculus with 4 samples.

Results

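The genes described here encode the secreted products of intestinal goblet cells and proteins that make them. They are Muc2, Fcgbp, Zg16, Clca1 (Clca3 in the array's design), Tff3, Agr2, Spdef, Spink4, Retnlb and Ccl6. All 10 were found on the array by symbol or, for Zg16, by the accession of its probe, and they are carried by 11 of its 41174 probes. Of these genes, 9 could be tested among 15532 genes in all, and Retnlb is given per array.

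Small intestinal crypts were isolated from 2 mice. Part of each preparation was grown into organoids for 1 week in Matrigel with EGF, R-spondin and Noggin, and part gave RNA directly as freshly isolated crypts. Cultured organoids were hybridised against the crypts of the same mouse on 2-colour arrays, with the dyes exchanged on a second array, so that 4 arrays held 2 animals. The pair of arrays of a mouse was averaged, and each mouse counts as 1 replicate (n = 2). Strain, sex and age of the mice are not given in the sources used here, and the crypt fraction was freed of villi with EDTA and a strainer. The comparison asks how the goblet cell products of crypts grown in culture stand against those of the crypts they came from.

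Goblet cells are secretory cells that build the mucus layer of the gut. Muc2, the gel-forming mucin of the intestine, is folded and linked into polymers in the endoplasmic reticulum and Golgi, packed into granules and expanded into a gel on release. Fcgbp, Zg16 and Clca1 are abundant proteins of that gel, Agr2 is a disulphide isomerase needed to make Muc2, and Spdef is a transcription factor of goblet and Paneth cell maturation. Tff3, Spink4, Retnlb and Ccl6 are small secreted proteins.

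The probes are shown for the mucin, for the gene with the lowest ratio, for the pair that reads Fcgbp at different places and for the gene with the ratio closest to 0, since the measured values rest on these 60 bases. Positions are those that the array files give on mouse build mm9, and all letters are in lower case because no motif was marked in them. The Muc2 probe lies at chr7:148940000-148940059 on the plus strand, and the Zg16 probe at chr7:134193837-134193896 on the minus strand. The first Fcgbp probe lies at chr7:28905517-28905576, the second spans chr7:28902583-28905377 and the Spink4 probe spans chr4:40876206-40878330, all on the plus strand. The second Fcgbp probe and the Spink4 probe each cover 60 bases that lie apart over 2795 and 2125 bases of the genome. Annotation of that build was not used here, so exon and UTR positions are not stated.
Muc2: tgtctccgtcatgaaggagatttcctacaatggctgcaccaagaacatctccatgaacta
Zg16: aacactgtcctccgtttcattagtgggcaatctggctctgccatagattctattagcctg
Fcgbp, first probe: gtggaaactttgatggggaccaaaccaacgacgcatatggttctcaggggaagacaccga
Fcgbp, second probe: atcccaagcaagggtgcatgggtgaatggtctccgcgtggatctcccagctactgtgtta
Spink4: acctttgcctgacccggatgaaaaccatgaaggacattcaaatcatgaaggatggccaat

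The 250 bases before the gene start, from RefSeq on GRCm38.p6, are shown for Muc2, Fcgbp and Agr2, since these genes encode the mucin, a protein of its gel and the enzyme that helps to fold it, and all 3 were lower in organoids. Promoters were at hand for 5 of the 10 genes: Muc2, Fcgbp, Agr2, Spdef and Ccl6. Capitals mark the E-box CAGCTG, the TATA-like motif ATATAA and, in Agr2, the reverse complement of the forkhead-like motif TGTTTG. Each motif was searched on both strands in 32817 promoters of the same length and occurs in 13.0% of them for the E-box, 9.10% for the TATA-like motif and 16.0% for the forkhead-like motif, and the motifs were chosen with the sequences in view. Muc2 (chr7:141690090-141690339, plus strand) holds CAGCTG with its first base 112 bases before the start and ATATAA at 175 and 29 bases. Fcgbp (chr7:28070986-28071235, plus strand) holds CAGCTG at 208 bases and ATATAA at 29 bases. Agr2 (chr12:35992675-35992924, plus strand) holds TGTTTG on the other strand at 215, 171, 167 and 163 bases, the last 3 overlapping. These matches describe the letters and do not show binding. The promoters of Spdef and Ccl6 held none of these motifs, although Ccl6 was lower in organoids as well. Muc2 and Fcgbp held no forkhead-like motif, and Agr2 held neither of the others. A link between motifs and ratios was not tested.
Muc2 promoter: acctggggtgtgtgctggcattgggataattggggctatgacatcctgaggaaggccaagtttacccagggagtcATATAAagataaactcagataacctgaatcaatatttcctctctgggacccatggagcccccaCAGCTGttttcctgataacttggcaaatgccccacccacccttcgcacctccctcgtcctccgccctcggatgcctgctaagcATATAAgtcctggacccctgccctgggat
Fcgbp promoter: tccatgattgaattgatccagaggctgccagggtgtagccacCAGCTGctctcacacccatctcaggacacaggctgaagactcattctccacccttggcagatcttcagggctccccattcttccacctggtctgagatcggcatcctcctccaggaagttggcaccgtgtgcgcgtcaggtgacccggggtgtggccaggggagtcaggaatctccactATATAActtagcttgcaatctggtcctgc
Agr2 promoter: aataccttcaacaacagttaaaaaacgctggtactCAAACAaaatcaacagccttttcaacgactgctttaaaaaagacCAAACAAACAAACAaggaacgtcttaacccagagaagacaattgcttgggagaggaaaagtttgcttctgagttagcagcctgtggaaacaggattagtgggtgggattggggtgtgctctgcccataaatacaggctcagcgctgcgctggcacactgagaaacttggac

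The share of probes well above background on an array was 51.5% to 61.7% for organoid RNA and 53.8% to 67.2% for crypt RNA, and at most 1 spot was saturated. The log ratios of the dye-swapped arrays correlated across probes at r = 0.837 in mouse 1 and 0.850 in mouse 2. Over all genes the median log2 ratio of organoid over crypt was 0.02. Epcam, the defining marker of epithelium, had 28323 and 25915 units of normalised intensity in organoids and 43753 and 37942 units in crypts, with a log2 ratio of -0.59 ± 0.05 (SD, n = 2; limma adjusted p = 0.0504). In bulk RNA, fewer cells of a type and less RNA per cell cannot be told apart.

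Most of the mucus genes were lower in organoids. Of the 9 genes tested, 6 fell (Zg16, Clca1, Ccl6, Fcgbp, Agr2 and Muc2), 0 rose, and Tff3, Spdef and Spink4 did not pass limma's test at an adjusted p of 0.05. Over all genes 5.50% fell, 5.47% rose and 11.0% changed in either direction. The median log2 ratio of the 9 genes was -1.62, against 0.02 over all genes, and it was -1.70 in mouse 1 and -1.54 in mouse 2. All 9 ratios were below 0 in both mice, whereas 31.7% of all genes were. The 9 were also below 0 on all 4 arrays, a share that was not counted over all genes. The ratios ran over a wide range, the lowest being -3.50 for Zg16 and the highest -0.19 for Spink4.

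**Figure D1:**
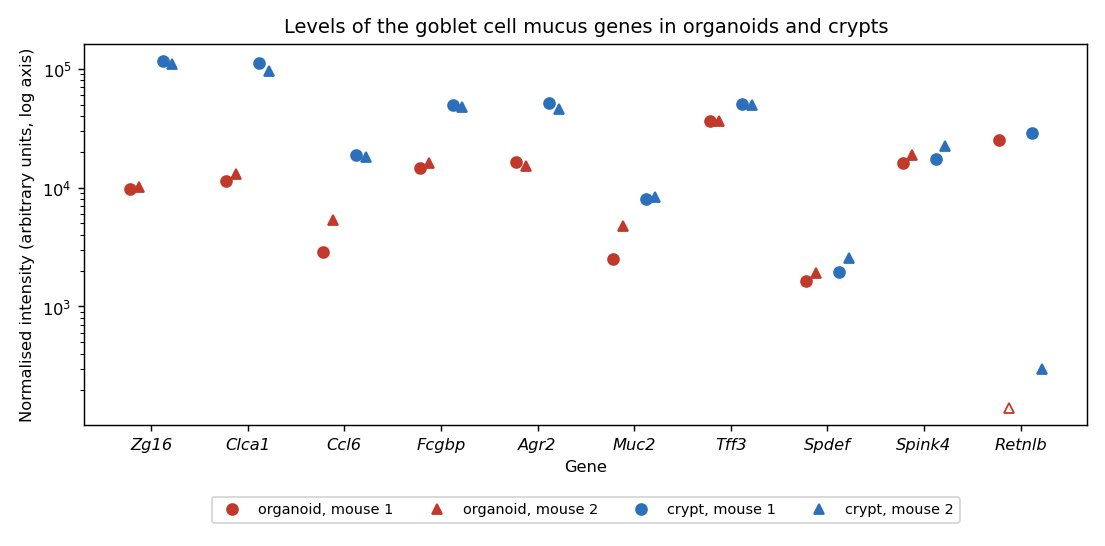
Normalised intensity (log axis, arbitrary units) of each mucus gene in organoids (red, left) and crypts (blue, right), with circles for mouse 1 and triangles for mouse 2 and each point the mean of 2 arrays. Levels of different genes come from different probes and are not comparable, the open triangle marks a level not well above background, and both Retnlb points of mouse 1 include a spot marked as an outlier by the scanner software. Organoid and crypt points lie far apart for Zg16 and Clca1, while for Retnlb the mice lie farther apart than the tissues.

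Muc2 had normalised intensities of 2486 units in organoids of mouse 1 and 4771 units in organoids of mouse 2, against 8054 and 8330 units in the crypts of the same mice. Both organoid values lay below both crypt values, and the organoids of mouse 1 were the lowest. The log2 ratio was -1.70 in mouse 1 and -0.80 in mouse 2, with a mean of -1.25 ± 0.63 (SD, n = 2), which is 2.38-fold lower (95% interval -1.84 to -0.66, limma adjusted p = 0.0329). The call did not hold with the scanner software's own ratios (adjusted p = 0.0792), with the deposited matrix (0.0721), with median centring (0.238), without the filter on dim probes (0.130) or with organoids in Cy3 alone (0.0813), while it held in the other 6 alternative settings tested. The adjusted p over all 11 alternatives ran between 0.00585 and 0.238, and the log2 ratio between -1.70 and -0.80, the lowest and highest being mouse 1 and mouse 2 alone.

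The mice thus differed in their organoids rather than in their crypts for Muc2. Organoids of mouse 2 were 1.92-fold above those of mouse 1, and the crypts 1.03-fold. An SD between mice at least as large as that of Muc2 occurred in 3.65% of all genes. With 1 culture per mouse, no test of this difference between the animals is possible.

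Fcgbp encodes a large protein of the mucus gel named for binding the Fc part of IgG. Its first probe read 14630 and 16239 units in organoids of mice 1 and 2, against 49418 and 47228 units in crypts. The organoid values were all below the crypt values, and within each tissue the mice were close. The mean log2 ratio was -1.65 ± 0.15 (SD, n = 2), or 3.13-fold lower, with an adjusted p of 0.00431 in limma. The second probe gave -1.76 ± 0.09, so the pair of probes gave nearby values. With median centring in place of loess the ratio was -1.24 and the adjusted p 0.140.

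Zg16 is a lectin-like granule protein that binds bacterial cell walls. Its organoid levels were 9826 units in mouse 1 and 10068 units in mouse 2, and its crypt levels were 115460 and 110270 units. No organoid value came near a crypt value, and the mice were close in both tissues. The log2 ratio was -3.50 ± 0.07 (SD, n = 2; limma adjusted p = 0.00116), an 11.3-fold lower level, and only 10 of the 15532 genes tested had a lower ratio.

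Clca1, a secreted metalloprotease of the mucus, read 11322 and 13133 units in organoids of mice 1 and 2, against 111033 and 94981 units in their crypts. The groups did not overlap. The log2 ratio was -3.29 in mouse 1 and -2.85 in mouse 2, with a mean of -3.07 ± 0.31 (SD, n = 2), or 8.42-fold lower (limma adjusted p = 0.00165). Ratios of Clca1 and Zg16 also moved with the dye. With organoids in Cy5 Clca1 gave -2.93 and -2.46 in mice 1 and 2, and with organoids in Cy3 it gave -3.66 and -3.25. For Zg16 the corresponding values were -3.23 and -3.25 in Cy5 and -3.88 and -3.66 in Cy3. Calls for Zg16 and Clca1 held in all 11 alternative settings with a test. The array's design also has a probe named Clca1, which reads a related gene now called Clca3a1 and is not counted here.

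**Figure D2:**
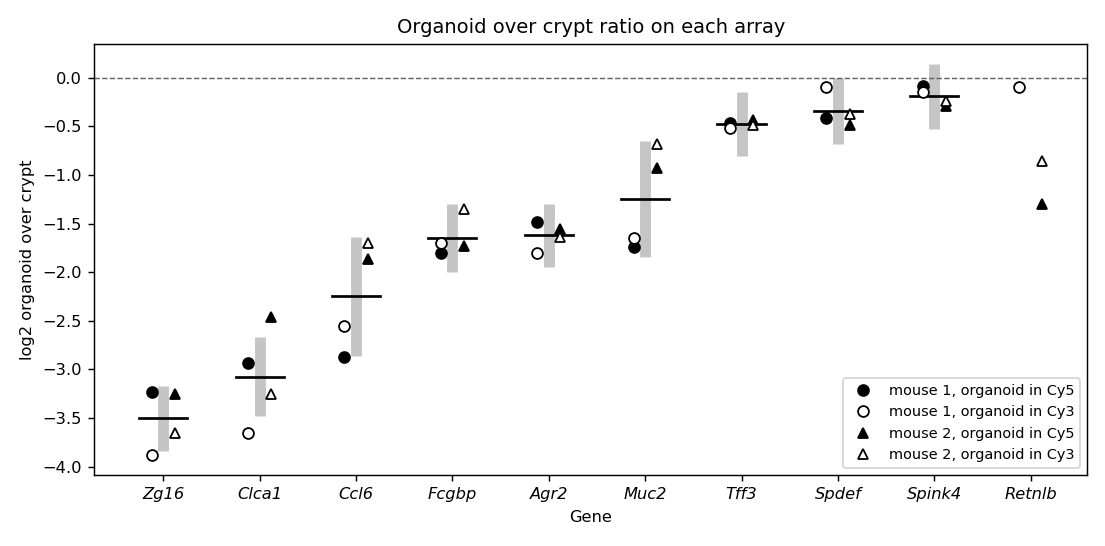
The log2 ratio of organoid over crypt on each array, with circles for mouse 1, triangles for mouse 2, filled for organoids in Cy5 and open for organoids in Cy3. Horizontal lines are the mean of the 2 mice and grey bars limma's 95% interval; Retnlb has its 3 unmarked spots alone and no test, with organoid signals not well above background at its triangles. Muc2 and Ccl6 separate by mouse, while Zg16 and Clca1 separate by dye.

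Agr2 sits in the endoplasmic reticulum, where it helps to fold Muc2. It read 16333 and 15201 units in organoids of mice 1 and 2, against 51041 and 46151 units in crypts. The groups stood clear of each other, and the ratio was nearly equal in the mice, at -1.64 and -1.60. The mean log2 ratio was -1.62 ± 0.03 (SD, n = 2), or 3.08-fold lower (limma adjusted p = 0.00393). With median centring it was -1.22 and did not pass (adjusted p = 0.151).

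Tff3, a trefoil peptide released with the mucin, had 36111 and 36315 units in organoids of mice 1 and 2, against 50724 and 50003 units in crypts. Organoid values were below crypt values, and the mice nearly coincided in each tissue. The log2 ratio was -0.48 ± 0.02 (SD, n = 2), and limma's adjusted p was 0.0817, with a 95% interval of -0.80 to -0.15. It passed when the 4 arrays were fitted with a dye effect (0.0156) or with the mouse as a random block (0.0144), settings that count arrays of a mouse as separate samples or nearly so.

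Spdef, an ETS transcription factor, read 1633 and 1899 units in organoids of mice 1 and 2, against 1945 and 2561 units in crypts. The organoids of mouse 2 were close to the crypts of mouse 1, although the groups did not overlap. The log2 ratio was -0.34 ± 0.13 (SD, n = 2), with a 95% interval of -0.68 to just below 0 and an adjusted p of 0.179 in limma. No alternative setting brought it past the threshold.

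Spink4, of a family of serine protease inhibitors, had 16092 and 18758 units in organoids of mice 1 and 2, against 17474 and 22538 units in crypts. Organoids of mouse 2 exceeded the crypts of mouse 1, so these groups overlapped. The mean log2 ratio was -0.19 ± 0.10 (SD, n = 2) with a 95% interval of -0.53 to 0.14 and a limma adjusted p of 0.423. Its sign turned to 0.18 with median centring, where the median over all genes was 0.17, so that Spink4 stood level with the array.

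In order of the ratio, the lowest first, the genes ran Zg16, Clca1, Ccl6, Fcgbp, Agr2, Muc2, Tff3, Spdef and Spink4. The ranges of the 2 mice overlapped between Fcgbp and Agr2, between Agr2 and Muc2, and between Spdef and Spink4. The other neighbours in that order lay apart.

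**Figure D3:**
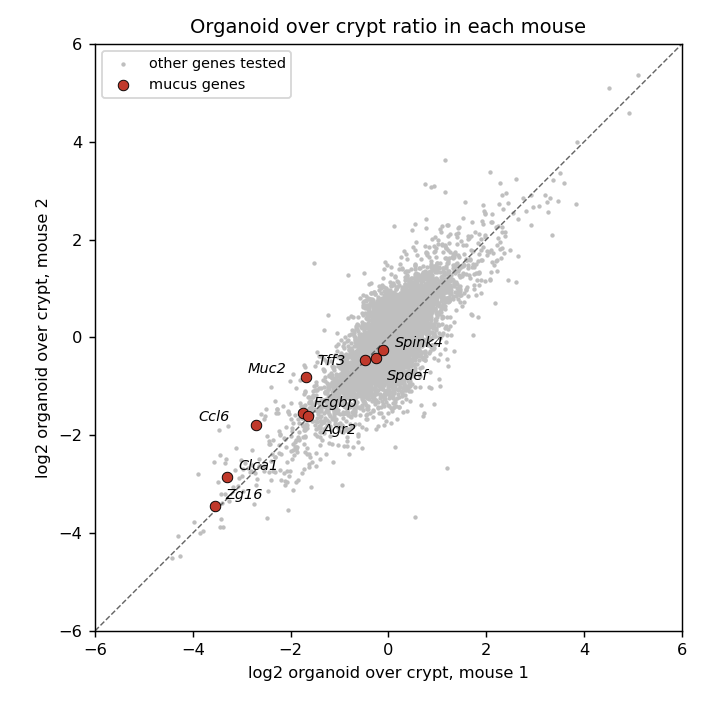
The log2 ratio of organoid over crypt in mouse 1 (x axis) and mouse 2 (y axis) for the 15532 genes tested, with the 9 tested mucus genes in red and the dashed line where both mice are equal. All 9 lie below 0 in both mice; Muc2 and Ccl6 lie above the dashed line by about 0.9 log2 units.

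Ccl6 is a mouse CC chemokine known from myeloid cells as well as from the gut epithelium. It read 2863 and 5301 units in organoids of mice 1 and 2, against 18793 and 18243 units in crypts. The groups did not overlap and, as for Muc2, organoids of mouse 1 were the lowest, with those of mouse 2 1.85-fold above them. The log2 ratio was -2.71 in mouse 1 and -1.78 in mouse 2, with a mean of -2.25 ± 0.66 (SD, n = 2), or 4.75-fold lower (limma adjusted p = 0.00808). Without the filter on dim probes the adjusted p was 0.0646.

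Some transcripts of white blood cells were lower in organoids, as Ccl6 was. Of 21 listed marker genes 16 were tested, 7 fell and 0 rose. Of those 7, Cd3g, Cd8a and Jchain were well above background in 0 of 4 organoid channels, Gzma in 1 and Gzmb in 3, so these 5 were tested through their crypt signal, and the count is no independent measure of direction. The summed level of the 16 genes was 15115 and 17572 units in organoids and 74066 and 73533 units in crypts. Without Lyz2 it was 3447 and 3295 units in organoids and 10428 and 8445 units in crypts. Ccl5 alone read 5134 and 3274 units in crypts, against 421 and 307 units in organoids. Gzma read 1234 and 1118 units in crypts, against 191 and 149 units in organoids. A few genes thus carry much of the difference in the sums, which add probes whose levels are not comparable. Lyz2 read 11668 and 14277 units in organoids and 63638 and 65088 units in crypts (log2 ratio -2.32 ± 0.18, SD, n = 2; adjusted p = 0.00232), and it is a lysozyme whose near copy Lyz1 is made by Paneth cells. A second Lyz2 probe gave log2 ratios of -0.45 and -0.73 in mice 1 and 2, against -2.45 and -2.19 for the first, so the probes disagree. The second probe was dim, with 172 and 158 units in organoids and 235 and 261 units in crypts. It was well above background in 1 of 4 organoid channels and 4 of 4 crypt channels.

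Of the defining leukocyte markers, Ptprc had a log2 ratio of -0.70 ± 0.33 (adjusted p = 0.0598) and was well above background in 1 of 4 organoid channels and 4 of 4 crypt channels. The other Ptprc probes were too dim to test, above background in 0 organoid and at most 2 crypt channels. Their log2 ratios in single mice lay between -0.16 and 0.15. Adgre1, a macrophage marker, was above background in 0 of 4 channels of either tissue. Cd3e gave 0.08 and Cd79a -0.04, while Csf1r gave -0.15. These probes were dim, the highest level being 342 units for Cd3e in crypts of mouse 1. A second Cd3e probe was well above background in 0 of 4 channels of either tissue, and the other Csf1r probes were too dim to test. Among the lymphocyte effector genes Ccl5, well above background in all 4 channels of both tissues, was -3.51 ± 0.14 (SD, n = 2). The part of white blood cells in the Ccl6 difference was not tested. Col1a1, the stromal marker, was above background in at most 1 organoid and 2 crypt channels by any probe.

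Retnlb encodes resistin-like molecule beta, which goblet cells secrete and which is known to be induced by gut bacteria and type 2 immunity. In mouse 1 its mean signals were 39980 and 15671 units in organoids, against 21271 and 41143 units in crypts, with the dyes exchanged between the arrays. In mouse 2 the organoid signals were 209 and 129 units, not well above background, against 233 and 375 units in crypts. The gene was therefore bright in both tissues of mouse 1 and near background in both tissues of mouse 2. On the first array of mouse 1 the scanner software marked the spot as uneven in the crypt channel, which left Retnlb out of the test.

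On the unmarked array of mouse 1 its log2 ratio of organoid over crypt was -0.10, and with the marked spot included it was -0.21. In mouse 2 the organoid signal gives only a bound, and crypts were at least 1.90-fold above organoids. The ratio there depended on the background correction: it was -1.30 and -0.86 on the arrays of mouse 2 with normexp, and -3.19 and -3.42 by the scanner software's own log2 ratio. No mean over the mice is given.

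The difference between the mice exceeded that between the tissues. With the marked spot kept, organoids of mouse 1 were at least 160-fold above those of mouse 2 (179-fold as measured), and crypts of mouse 1 were 97.6-fold above those of mouse 2, or 78.9-fold on the unmarked array alone. By this fold Retnlb stood first of 22530 organoid probes and of 23268 crypt probes, both as measured and with signals not well above background set at the floor; folds of such probes are bounds, so the organoid order is a description. The 10 probes of the other mucus genes differed between mice by at most 1.92-fold in organoids and 1.32-fold in crypts. Past 10-fold stood 16 organoid probes (0.0710%) and 16 crypt probes (0.0688%), and 9 probes were past it in both tissues.

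Those 9 probes, named after their values were seen, read Retnlb, Pla2g2a, Xist (2 probes), Eif2s3y, Pdxdc1, Ubash3b, Ubfd1 and a transcript without a symbol in the array's design. Pla2g2a, a phospholipase of Paneth cells, was 39.2-fold higher in organoids of mouse 1 than in those of mouse 2, and 49.0-fold in crypts. Xist, the non-coding RNA of the inactive X chromosome, was at least 60.7-fold higher in organoids of mouse 1 and at least 38.4-fold in crypts by its first probe, being not well above background in mouse 2. Eif2s3y, a Y-linked gene, was at least 32.3-fold higher in organoids of mouse 2 and at least 21.3-fold in crypts, being not well above background in mouse 1. Mouse 1 thus read as female and mouse 2 as male by Xist and Eif2s3y, although the labels give no sex. There is 1 animal at each level, so no test is possible. Sex, animal and culture cannot be told apart in any difference between the mice, and the source of the Retnlb difference was not tested.

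**Figure D4:**
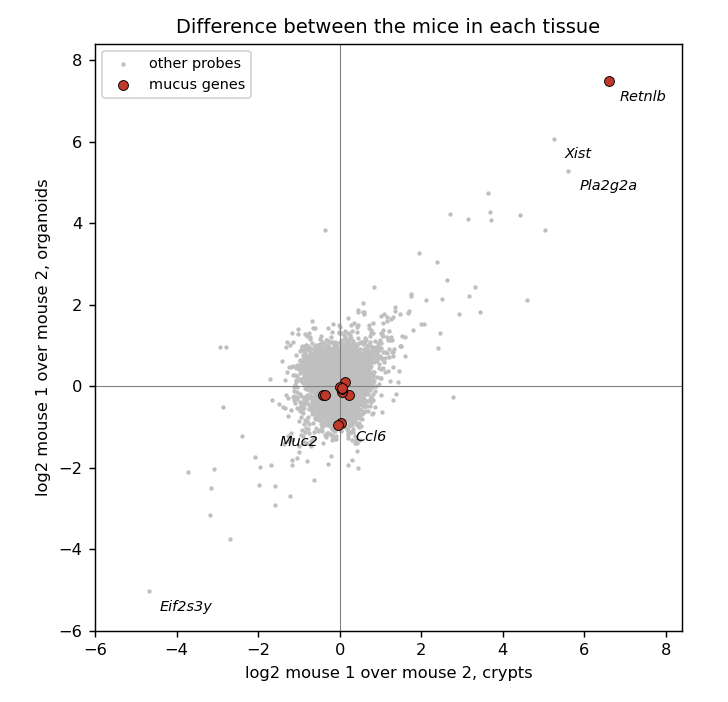
The log2 ratio of mouse 1 over mouse 2 in crypts (x axis) and organoids (y axis) for probes well above background on both arrays of at least 1 mouse in each tissue, with the mucus genes in red. Retnlb lies farthest to the upper right, beyond Xist and Pla2g2a, with levels not well above background drawn as measured. Muc2 and Ccl6 lie below 0 in organoids and near 0 in crypts, and the other mucus genes lie around 0.

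Genes related to the mucus genes were described with lists. Among 11 listed regulators of goblet and related secretory cell fate, 2 rose, 1 fell and 8 did not pass. Their median was -0.20, over factors that do not all act in the same direction. Foxa2, a forkhead factor, rose by 1.10 ± 0.44 on the log2 scale (limma adjusted p = 0.0255), and its relative Foxa3 by 0.62 ± 0.02 (adjusted p = 0.0435; SD, n = 2). Klf4, a factor of goblet cell differentiation, fell by 1.28 ± 0.29 (adjusted p = 0.0112), with 10004 and 9714 units in organoids and 27964 and 20420 units in crypts. Atoh1, the master regulator of the secretory lineage, gave -0.41 ± 0.20 and did not pass (adjusted p = 0.140).

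The machinery of mucin synthesis and secretion comes next. Among 8 tested glycosyltransferases and chaperones of mucin glycosylation, 0 rose and 1 fell, Galnt12 at -0.69 ± 0.01 (adjusted p = 0.0323), and the median was -0.04. Among 16 genes of folding and granule traffic, 1 rose and 2 fell with a median of -0.42, and 13 of the 16 were below 0 in both mice. Atp2c2, a Golgi calcium pump, was the one that rose, by 0.96 ± 0.26 (adjusted p = 0.0213). Rep15, a Rab15 effector, gave -1.08 ± 0.08 (adjusted p = 0.0107), and Creld2, a chaperone of the endoplasmic reticulum, gave -1.07 ± 0.43 (adjusted p = 0.0259). The list counts are descriptions, to be read beside the 11.0% of all genes that changed.

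Other mucins and trefoil factors gave 0 higher and 2 lower of 9 tested, with a median of 0.01. Both of those that fell are membrane mucins of absorptive cells, Muc3 at -2.52 ± 0.58 (adjusted p = 0.00479) and Muc13 at -1.57 ± 0.01 (adjusted p = 0.00410). Among 13 other genes listed as goblet-enriched 0 rose and 4 fell, with a median of -0.38. The list does not show in which cells they were made here. Ang4, an antimicrobial ribonuclease also made by Paneth cells and counted in their list as well, gave -2.54 ± 1.05 (adjusted p = 0.0149). Lypd8, which binds bacterial flagella, gave -1.42 ± 0.56 (adjusted p = 0.0189). Bcas1 gave -1.21 ± 0.11 (adjusted p = 0.00845), and Capn9, named after its value was seen, gave -0.68 ± 0.17 (adjusted p = 0.0423).

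Markers of other epithelial cell types moved too. Of 13 Paneth cell genes 11 fell and 0 rose, with a median of -1.78, led by Lyz1 at -2.92 ± 0.11 (adjusted p = 0.00143). Of 14 enterocyte genes 12 fell and 0 rose, with a median of -1.80, led by Lct, the lactase of the brush border, at -4.47 ± 0.06 (adjusted p = 0.00113). In contrast 1 of 11 enteroendocrine genes fell (Sct, secretin, at -1.60; adjusted p = 0.00399) with a median of 0.10, and 0 of 6 tuft cell genes passed, with a median of 0.18. The mice differed in sign for both of these medians. The enteroendocrine median was -0.26 in mouse 1 and 0.43 in mouse 2, and the tuft cell median -0.07 and 0.38. Of 7 general epithelial genes 1 rose (Krt18, at 1.26 ± 0.36; adjusted p = 0.0146) and 3 fell (Krt8, Krt19 and Cldn7), with a median of -0.64. Of 11 stromal and vessel genes 3 were bright enough to test and 1 fell (Acta2, at -0.66 ± 0.01; adjusted p = 0.0359). The mucus gene median of -1.62 thus stood near those of Paneth cells and enterocytes, and whether it differs from the other lists was not tested.

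**Figure D5:**
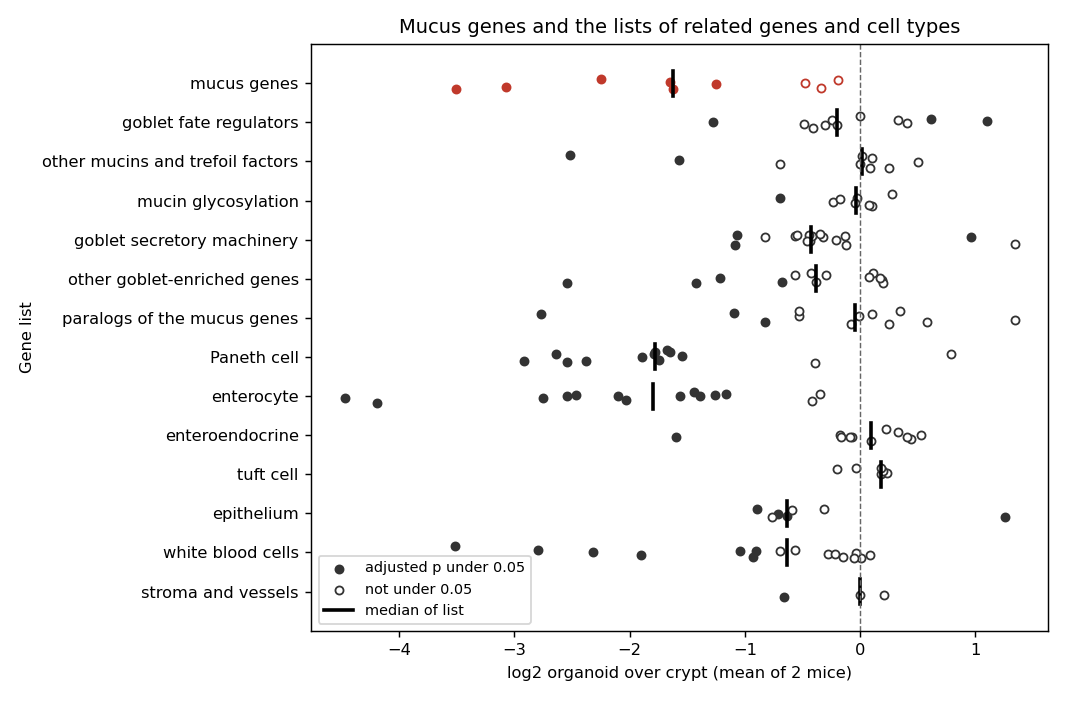
The log2 ratio of organoid over crypt, as the mean of 2 mice, for each tested gene (points) of the mucus genes (red) and of the lists named on the y axis, filled where limma's adjusted p was under 0.05, with the median of each list as a bar. The mucus genes, Paneth cell and enterocyte lists have medians below -1.5, and the other lists lie closer to 0.

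The genes whose 4 array ratios lay nearest to those of Muc2, by Euclidean distance over the 4 log2 ratios and leaving out the mucus genes, were Cyp4v3 (0.313), Serpinb1a (0.458), Slc28a2 (0.504), Klf4 (0.524) and Sult1b1 (0.526). The nearest mucus gene was Fcgbp, at a distance of 1.05. Cyp4v3, a cytochrome P450, had ratios of -1.84 and -1.80 on the arrays of mouse 1 and -0.84 and -0.92 on those of mouse 2, so it too stood lower in mouse 1 than in mouse 2. The 4 ratios come from 2 animals and each likeness is a description.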

How the data were processed

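RNA of organoids and crypts from 2 mice was hybridised on 4 Agilent 4x44k mouse arrays, all on 1 slide with 1 scan. The deposited files hold scanner intensities per spot (Feature Extraction version 9.5.3 per the submitters' processing notes, while the file headers name a later one) and, per the file headers, a log10 ratio of Cy5 over Cy3. The deposited matrix's log ratios matched each array's scanner log10 ratio (r = 0.978 to 0.991 over probes) in direction red over green. The label of each channel set the direction, so that every ratio is organoid over crypt.

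The mean signal and median local background of the deposited intensities were corrected with normexp (offset 50) and normalised within arrays by loess (limma 3.58.1 in R 4.3.3), with 1639 control spots at weight 0 and 161 to 197 outlier-marked spots per array left out. Levels are loess and Aquantile values, in arbitrary units. Log2 ratios of the deposited intensities were averaged over spots and dye swaps within a mouse, and the 2 mouse values were tested against 0 with limma's lmFit and eBayes (residual df 1, prior df 4.20) with Benjamini-Hochberg adjustment over 15532 genes. No separate cultures per mouse are labelled, so the spread between the 2 mice holds animal, culture and the difference in sex read from Xist and Eif2s3y together. The p-values rest on that spread and, to a larger part, on limma's prior SD over all genes (0.20). The number of arrays limits the precision. Genes were represented by their brightest probe among those well above background in all 4 organoid or all 4 crypt channels. For 24844 probes the symbol was that of the RefSeq transcript the probe is assigned to, and for the others the array's own gene name was kept. Counts of calls use an adjusted p under 0.05. A fold given as at least sets the dim group at the lowest signal among probes well above background, or at its own where higher.

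The mucus genes and lists were chosen with earlier results of these data known. Genes to be named were all mucus genes, the 5 nearest to Muc2 and the defining markers. From each list they were up to 3 called genes per direction by size, filled up to 2 with the brightest where fewer passed. Not every list gene so chosen is printed, and some others are, such as Atoh1. The fit was tested on simulated data. Figures used Python 3.11.15 and matplotlib 3.10.9. Alternatives were another background correction, the scanner's ratios, the deposited matrix, median centring, no dim-probe filter, the mean over probes, each dye orientation alone, 4 arrays with a dye effect or with the mouse as a random block, outlier-marked spots kept, and either mouse alone.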

Additional observations from a re-analysis of the deposited data

How the results depend on the processing

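Over all genes 1704 changed (850 higher, 854 lower). This count was 230 with median centring, 677 without the filter on dim probes and 906 with organoids in Cy3 alone, and it was 3709 when the 4 arrays were fitted with a dye effect; a random block for the mouse gave 3082. Both settings count more than 2 samples. Of the mucus genes 6 fell, and 3 with median centring (Zg16, Clca1 and Ccl6), where their median was -1.22 and the median of all genes 0.17, against 0.02 with loess. The mucus gene median of -1.62 was -1.44 with outlier-marked spots kept, as Retnlb then entered, and also -1.44 without Zg16, an alternative added after seeing the data. With mouse 1 or mouse 2 left out it was -1.54 and -1.70. Spink4 turned to 0.18 with median centring (adjusted p = 0.961). Zg16 and Clca1 passed in all 11 alternatives with a test, and no mucus gene rose in any. Slide and scan were the same on all arrays, so a block for them could not be fitted. Each array holds both tissues of 1 mouse, so the ratio tested is already paired. Retnlb in organoids of mouse 2 was not well above background, which leaves its ratio there a bound.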

Other observations

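Close relatives of the mucus genes were on the array as well. Of 12 tested, 0 rose and 3 fell, with a median log2 ratio of organoid over crypt of -0.05. Spink1, a trypsin inhibitor of the family of Spink4, had 3488 and 4157 units in organoids and 24573 and 27481 units in crypts, a log2 ratio of -2.77 ± 0.06 (SD, n = 2; limma adjusted p = 0.00143), whereas Spink4 gave -0.19 ± 0.10. Clca4a and Clca4b, neighbours of Clca1 in its gene family, gave -1.09 ± 0.01 (adjusted p = 0.00986) and -0.83 ± 0.03 (adjusted p = 0.0202). Whether relatives differ from each other was not tested.

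Agr3, the relative of Agr2 and named after its values were seen, differed between the mice. It had 1453 and 3605 units in organoids and 1036 and 785 units in crypts, with log2 ratios of 0.49 in mouse 1 and 2.20 in mouse 2 (mean 1.34 ± 1.21, SD, n = 2; limma adjusted p = 0.0999). Both organoid values were above both crypt values, but the spread between mice was nearly as large as the mean.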
